A study of Mus musculus with 12 samples.

Results

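Open chromatin of mouse embryonic fibroblasts (MEFs) transformed with Hdac7SA and Mef2d was compared with that of MEFs transformed with Hras and E1A, both untreated, from the deposited ATAC-seq peak lists. A peak is a 400 bp stretch called as open, and a locus is the union of peaks that overlap by at least 1 bp in any of the 7 lists of the series. A locus was taken as open in a cell line where that line's list had a peak in it. Of 147985 loci in all 7 lists, 133802 were open in Hdac7SA.Mef2d, in Hras.E1A or in both. Of these, 53233 were open in Hdac7SA.Mef2d and not Hras.E1A, 15178 were open in Hras.E1A and not Hdac7SA.Mef2d, and 65391 were open in both. These classes are called Hdac7SA.Mef2d-only, Hras.E1A-only and shared loci.

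Hdac7SA is a form of the class IIa histone deacetylase Hdac7 in which serines are replaced by alanine, so that the protein stays in the nucleus, and Mef2d is a MADS-box transcription factor. Hras here carries the activating G12V change, and E1A is an adenoviral oncoprotein. The cell line label names OG2 MEFs, which carry a GFP reporter driven by Oct4, whereas the growth protocol names a wild type ICR background. The MEFs came from E13.5 embryos and were passaged until immortal, and the transgenes were carried by both libraries of each line, so that no untransformed cells stand in this comparison. The other 5 lists come from Hras.E1A cells treated for 2 days with PD0325901 (PD, a MEK inhibitor) or trichostatin A (TSA, a histone deacetylase inhibitor), from untreated Hras.Myc cells and from Hras.Myc cells given either drug. Each library was made from about 50000 cells, and 2 libraries per untreated line were pooled by the authors into 1 list. No replicate check and no test between the lines was therefore possible, the sequencing depth behind each list is unknown, and the intervals below (95%, exact Clopper-Pearson) cover counting error only and treat loci as independent.

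MEF2 factors bind an A/T-rich site and recruit either class IIa histone deacetylases, which hold target genes silent, or coactivators. Phosphorylation of the serines of a class IIa histone deacetylase normally sends it out of the nucleus and frees MEF2. RAS signals through MEK and ERK to the FOS and JUN proteins, which pair as AP-1 and bind TGAGTCA, a sequence common in fibroblast enhancers, while E1A binds the retinoblastoma protein and the acetyltransferases p300 and CBP.

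The sequences below show what the loci of each class can look like. For each class they are the highest-scoring loci over 1000 bp from a transcription start site (TSS) that held the site of interest and lay outside exons, with MEF2 sites for Hdac7SA.Mef2d and AP-1 sites for Hras.E1A. Each is the central 200 bp of the peak in mm10, with MEF2 and AP-1 matches in capitals. The first 3 had a peak in Hdac7SA.Mef2d cells alone among the 7 lists, at the 99.98, 99.98 and 99.97 score percentiles of that list. They lie in an intron 18150 bp from a start site of Ano1, a calcium-activated chloride channel, in an intron 767305 bp from a start site of Ccser1, and between genes 65047 bp from Hs3st1, a heparan sulfate sulfotransferase. The Ccser1 and Hs3st1 loci held an AP-1 match beside the MEF2 match.
Ano1, chr7:144720094-144720293, plus strand: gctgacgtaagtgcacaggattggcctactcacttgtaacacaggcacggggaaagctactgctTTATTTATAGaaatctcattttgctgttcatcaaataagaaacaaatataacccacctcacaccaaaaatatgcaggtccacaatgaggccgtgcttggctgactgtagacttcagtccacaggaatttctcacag
Ccser1, chr6:62078260-62078459, plus strand: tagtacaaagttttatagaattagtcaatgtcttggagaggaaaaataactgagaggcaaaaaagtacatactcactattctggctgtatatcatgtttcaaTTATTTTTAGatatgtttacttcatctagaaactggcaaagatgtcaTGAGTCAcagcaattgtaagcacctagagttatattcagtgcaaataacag
Hs3st1, chr5:39820622-39820821, plus strand: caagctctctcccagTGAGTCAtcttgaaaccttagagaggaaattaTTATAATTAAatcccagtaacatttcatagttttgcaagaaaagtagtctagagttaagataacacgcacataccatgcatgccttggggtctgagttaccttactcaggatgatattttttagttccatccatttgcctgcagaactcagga
The next 3 were open in Hras.E1A and not Hdac7SA.Mef2d, at the 99.9, 99.8 and 99.7 score percentiles of the Hras.E1A list. All 3 lie in introns, 17959 bp from a start site of Wdr78, which encodes a dynein intermediate chain of cilia, 189172 bp from one of Dlg2, a synaptic scaffold, and within Phactr1, a regulator of actin and protein phosphatase. All 3 were also open in TSA-treated Hras.E1A and TSA-treated Hras.Myc cells, and none was open in PD-treated Hras.E1A cells.
Wdr78, chr4:103096041-103096240, plus strand: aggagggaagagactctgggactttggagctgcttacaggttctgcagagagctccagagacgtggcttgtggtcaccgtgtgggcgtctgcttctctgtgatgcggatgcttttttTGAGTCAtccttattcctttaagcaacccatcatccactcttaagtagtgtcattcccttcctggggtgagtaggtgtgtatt
Dlg2, chr7:91280000-91280199, plus strand: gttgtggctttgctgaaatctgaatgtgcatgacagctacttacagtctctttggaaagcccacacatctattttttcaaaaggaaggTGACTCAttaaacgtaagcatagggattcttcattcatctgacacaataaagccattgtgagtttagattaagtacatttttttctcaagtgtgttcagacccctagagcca
Phactr1, chr13:42749409-42749608, plus strand: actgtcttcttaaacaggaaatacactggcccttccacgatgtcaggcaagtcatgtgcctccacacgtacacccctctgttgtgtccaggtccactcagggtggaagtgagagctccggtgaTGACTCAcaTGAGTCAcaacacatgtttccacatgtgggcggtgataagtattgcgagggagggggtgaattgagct

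The Hdac7SA.Mef2d list held 119251 peaks (118624 loci) and covered 47.7 Mb, and the Hras.E1A list held 81201 peaks (80569 loci) and covered 32.5 Mb. Of the Hdac7SA.Mef2d loci, 55.1% (interval 54.8 to 55.4) were also open in Hras.E1A, and of the Hras.E1A loci 81.2% (80.9 to 81.4) were also open in Hdac7SA.Mef2d. The lists are not independent calls. The same start and end stood in both for 65944 peaks, or 81.2% of the Hras.E1A peaks, and the authors' redefine_peaks step passes peak positions from sample to sample to recover weak peaks. The lowest score was 1.2 in each of the 7 lists, and the sources used here do not give the scale of the score, so that scores are used only as a percentile within a list.

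Since the lists differ in length, the Hdac7SA.Mef2d list was also cut to its 81201 highest-scoring peaks. Then 35221 loci were open in Hdac7SA.Mef2d only, 34772 in Hras.E1A only and 45797 in both. Lists of equal length must give nearly equal numbers of loci open in a single list, so the ratio of 3.51 as deposited and of 1.01 at equal length says nothing on which line had more open chromatin. Of the 34772 Hras.E1A-only loci at equal length, 15178 had no peak at all in the whole Hdac7SA.Mef2d list and the others had a peak with a score below the cut. The share of Hdac7SA.Mef2d loci also open in Hras.E1A was 56.5% at equal length, and it fell to 35.8% for the 20000 highest-scoring peaks of each list and to 23.2% for the 5000 highest.

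**Figure D1:**
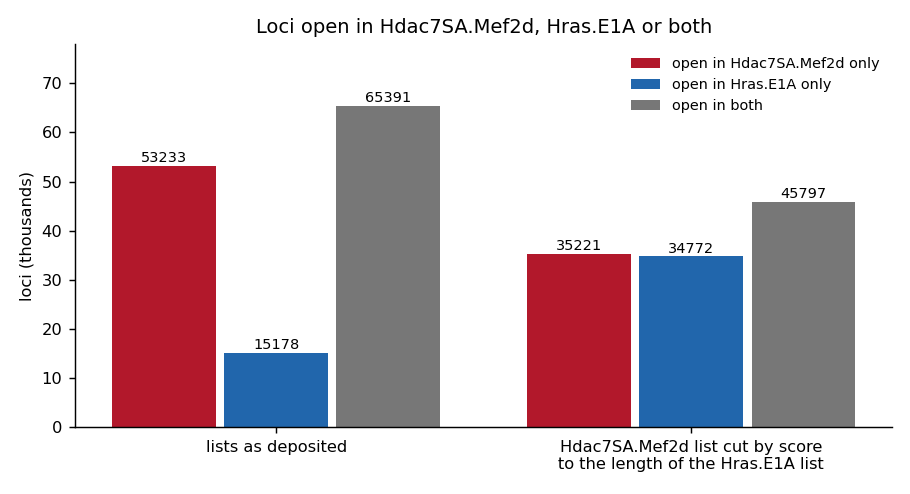
Number of loci (in units of 1000) open in Hdac7SA.Mef2d only, in Hras.E1A only and in both, with the lists as deposited (left) and with the Hdac7SA.Mef2d list cut to the length of the Hras.E1A list (right). The 2 single-list bars are 53233 and 15178 as deposited and 35221 and 34772 at equal length.

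Score and sharing were related in Hras.E1A and little in Hdac7SA.Mef2d. Among Hdac7SA.Mef2d loci, the share also open in Hras.E1A lay between 48.0% and 58.1% in all 10 score deciles, with 53.6% (52.7 to 54.5) in the highest decile. Among Hras.E1A loci, the share also open in Hdac7SA.Mef2d was 62.3% (61.2 to 63.3) in the lowest decile and 92.1% (91.5 to 92.7) in the highest, with a higher value in each next decile. The median percentile of Hdac7SA.Mef2d-only loci in their list was 48.5, against 51.4 for shared loci in the same list. The median percentile of Hras.E1A-only loci in theirs was 32.1, against 54.4 for shared loci. Loci open in Hdac7SA.Mef2d only thus had scores spread over the whole list, and those open in Hras.E1A only lay mostly in the lower part of theirs. The Hdac7SA.Mef2d list was the longer of the 2 (119251 against 81201 peaks), and these deciles and medians were not repeated at equal length. The part of list length in this contrast was not tested.

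**Figure D2:**
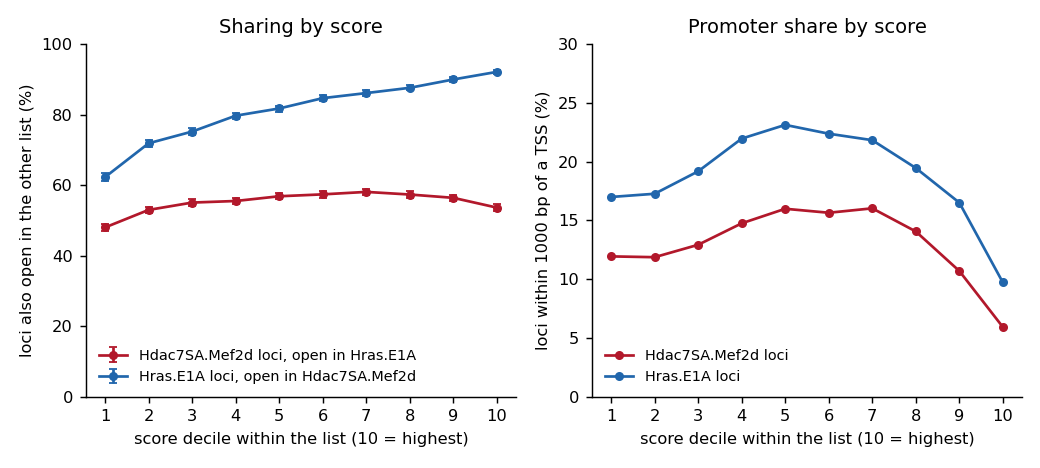
Left, percent of the loci of each list that were also open in the other list, by decile of score within the list (error bars, 95% exact interval), and right, percent of the loci within 1000 bp of a TSS. The Hdac7SA.Mef2d line stays between 48.0% and 58.1%, and the Hras.E1A line climbs to 92.1% in the highest decile.

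Hdac7SA.Mef2d-only loci lay farther from start sites than the other classes. Their median distance to the nearest TSS of a protein-coding gene was 60131 bp, against 25638 bp for Hras.E1A-only loci and 19192 bp for shared loci. Within 1000 bp of a TSS, called a promoter here, lay 2.17% (2.05 to 2.30) of Hdac7SA.Mef2d-only loci, 6.14% (5.76 to 6.53) of Hras.E1A-only loci and 21.8% (21.5 to 22.1) of shared loci. At equal list length the promoter shares were 1.14% of Hdac7SA.Mef2d-only, 13.8% of Hras.E1A-only and 22.6% of shared loci. Over 100000 bp from any TSS lay 37.4%, 16.8% and 15.8% of the 3 classes in the same order. Between genes lay 52.7% of Hdac7SA.Mef2d-only, 44.5% of Hras.E1A-only and 46.4% of shared loci, and in introns 45.1%, 49.3% and 41.7%. The Hdac7SA.Mef2d-only loci were also the most A/T-rich, with a median of 42.25% G and C bases, against 49.5% in Hras.E1A-only and 49.25% in shared loci, and they had a median of 3 CpG sites in 400 bp, against 5 and 6.

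In the lists as deposited, most open promoters were open in both lines. Of 21911 protein-coding genes, 13906 had a promoter open in both lists, 6992 in neither, 539 in Hdac7SA.Mef2d only and 474 in Hras.E1A only. The last 2 numbers were 3.61% and 3.18% of the 14919 genes with a promoter open in either list. This near balance depended on the list length, since at equal length 288 genes (1.96% of 14668) had a promoter open in Hdac7SA.Mef2d only, 3233 (22.0%) in Hras.E1A only and 11147 in both. Shared promoter loci also kept their place in the lists, with 85.0% within 20 percentile points of each other, against 58.4% of shared loci elsewhere. The rank correlation of the percentiles was 0.82 over 14244 promoter loci and 0.53 over 51147 distal loci, given as a description, since loci of 2 lists called jointly are not independent replicates. The promoters of the Y-linked genes Ddx3y and Eif2s3y were open in Hdac7SA.Mef2d only, at the 73.2 and 72.1 percentiles. Chromosome Y held 10 Hdac7SA.Mef2d-only, 1 Hras.E1A-only and 2 shared loci. The paper gives the sex of the animals as unknown, so a difference in sex or in chromosome Y cannot be told apart from the transgenes.

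Among the 10 highest-scoring promoter loci open in Hdac7SA.Mef2d only were those at Gigyf2, a regulator of translation, at the 99.95 percentile, Arhgap12, a GTPase-activating protein, at 99.5, and Pik3cg, the catalytic subunit of PI3K gamma, at 99.1. Others of the 10 were at Cytip, Dcdc2c, Slco1a6, Nrxn3 and the olfactory receptor genes Olfr97 and Olfr435, and 8 of the 10 loci were open in none of the other 5 lists. In the other direction, the highest was at Fam160a1 (99.5 percentile of the Hras.E1A list), followed by 2200002J24Rik (98.8), Sgsm1 (96.5) and Zfand4 (96.3). Further down came Cnot2, a subunit of a deadenylase complex, at 96.1 and Chn1, a Rac GTPase-activating protein, at 94.9. Each of those 10 Hras.E1A-only promoter loci was open in at least 1 of the other 5 lists, 9 of them in untreated Hras.Myc cells and 9 in TSA-treated Hras.E1A cells. All of the other 5 lists come from Hras-transformed cells.

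Away from promoters, the highest-scoring Hdac7SA.Mef2d-only locus lay in an intron at chr15:54264364-54264763, 13721 bp from a start site of Tnfrsf11b, which encodes the decoy receptor osteoprotegerin. The next 3 lay near Kif3a, a kinesin subunit, near Zfp960 and near Mtdh. Of the 10 highest, 8 were open in none of the other 5 lists, 4 held an AP-1 match, 1 a MEF2 match and none a TEAD match. The highest Hras.E1A-only distal locus lay at chr10:94174664-94175063 in an intron, 18378 bp from a start site of Nr2c1, an orphan nuclear receptor, followed by loci near Gramd1b, Wdr78, Ntng1 and Dscam. All 10 of these highest loci were open in TSA-treated Hras.E1A cells, 7 in untreated Hras.Myc and 3 in PD-treated Hras.E1A cells. Over all Hras.E1A-only loci these shares were 74.9%, 63.7% and 32.2%. Open in none of the other 5 lists were 66.7% of all Hdac7SA.Mef2d-only and 8.36% of all Hras.E1A-only loci.

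The classes differed in the transcription factor sites they held. MEF2 sites were in the central 200 bp of 7.26% (7.04 to 7.48) of Hdac7SA.Mef2d-only loci, 0.850% (0.710 to 1.01) of Hras.E1A-only loci and 2.05% (1.95 to 2.17) of shared loci, beside 5623 of all 147985 loci. AP-1 sites (TGAGTCA, or TGACTCA on the other strand) went the other way. They were in 18.4% (18.1 to 18.8) of Hdac7SA.Mef2d-only loci, 35.4% (34.6 to 36.1) of Hras.E1A-only loci and 26.4% (26.1 to 26.7) of shared loci, beside 23.7% of all loci. TEAD sites (ACATTCC), bound by the DNA-binding partners of YAP and TAZ, stood in 10.9%, 3.34% and 5.65% of the 3 classes, beside 7.33% of all loci. Both strands were searched for each of 25 sites, a match is a string of letters and not a bound site, and none of these shares says that a factor was present.

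These differences had the same direction at low, middle and high G and C content. With the loci split into 3 equal groups by G and C content (bounds at 43% and 49.75%), MEF2 sites were in 9.18% of Hdac7SA.Mef2d-only and 2.03% of Hras.E1A-only loci of the lowest group, in 5.52% and 1.06% of the middle group and in 3.48% and 0.386% of the highest group. AP-1 sites were in 20.7% of Hdac7SA.Mef2d-only and 43.6% of Hras.E1A-only loci of the lowest group, in 17.6% and 42.1% of the middle group and in 10.7% and 28.1% of the highest group. Of the 25 sites, 9 were more frequent in Hdac7SA.Mef2d-only than in Hras.E1A-only loci in all 3 groups and 12 were less frequent in all 3. Besides MEF2 and TEAD, the first group held sites of RUNX factors (searched as TGTGGTT), of C/EBP factors (searched as TTGCNNAA) and of SRF, the partner of the actin-sensing cofactors MRTF. It also held sites of GATA factors, searched with the letters AGATAAG. C/EBP sites were in 13.1% of Hdac7SA.Mef2d-only and 6.40% of Hras.E1A-only loci, beside 9.57% of all loci, RUNX sites in 9.44% and 5.74%, beside 7.23%, GATA sites in 3.53% and 2.00%, beside 2.60%, and SRF sites in 1.56% and 0.771%, beside 1.23%. The second group held sites of the insulator protein CTCF, in 0.263% of Hdac7SA.Mef2d-only and 2.54% of Hras.E1A-only loci, beside 6.43% of shared and 3.28% of all loci. Sites of the repressors ZEB and SNAI (CACCTG) were in 4.50% and 15.5%, beside 9.31% of all loci.

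For AP-1, MEF2 and TEAD the shares were wider apart, in percentage points, among high-scoring loci. Each list was split by score into 5 groups of equal size. In the lowest group, MEF2 sites were in 5.71% of Hdac7SA.Mef2d-only loci, and in the highest group in 9.92% (9.36 to 10.5). The same groups of Hras.E1A-only loci had 0.915% and 1.10%. AP-1 sites were in 14.3% of Hdac7SA.Mef2d-only loci of the lowest group and in 25.7% of the highest, against 27.4% and 58.6% (56.1 to 61.2) of Hras.E1A-only loci. TEAD sites were in 8.94% of the lowest and 14.0% of the highest group of Hdac7SA.Mef2d-only loci, against 2.93% and 2.26% of Hras.E1A-only loci. With both lists cut to their 5000 highest-scoring peaks, MEF2 sites were in 8.78% of loci open in Hdac7SA.Mef2d only and 1.43% of those open in Hras.E1A only, and AP-1 sites in 34.7% and 56.3%.

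**Figure D3:**
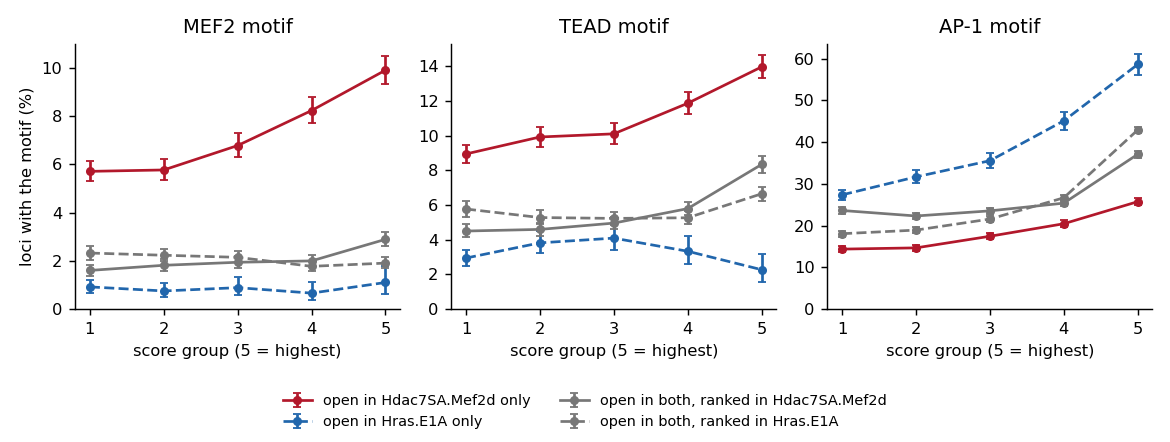
Percent of loci with a MEF2, TEAD or AP-1 site in the central 200 bp, by score group (5 equal groups, 5 is the highest) in Hdac7SA.Mef2d (solid lines) or Hras.E1A (dashed lines), with 95% exact intervals. In the highest group, MEF2 sites reach 9.92% of Hdac7SA.Mef2d-only loci and AP-1 sites reach 58.6% of Hras.E1A-only loci.

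AP-1 and TEAD sites were denser at the centre of the peaks than at their flanks. Over distal loci, AP-1 matches were 3.83 times as dense within 50 bp of the centre as between 100 and 190 bp from it in Hdac7SA.Mef2d-only loci, 6.09 times in Hras.E1A-only loci and 6.26 times in shared loci. TEAD matches were 2.60, 1.33 and 2.11 times as dense at the centre in the same order of classes. MEF2 matches were 1.33 times as dense at the centre of Hdac7SA.Mef2d-only loci, and 0.405 times at that of Hras.E1A-only loci and 0.827 times at that of shared loci, that is, sparser at the centre than at the flanks. The Hras.E1A-only figure rests on 52 central matches.

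**Figure D4:**
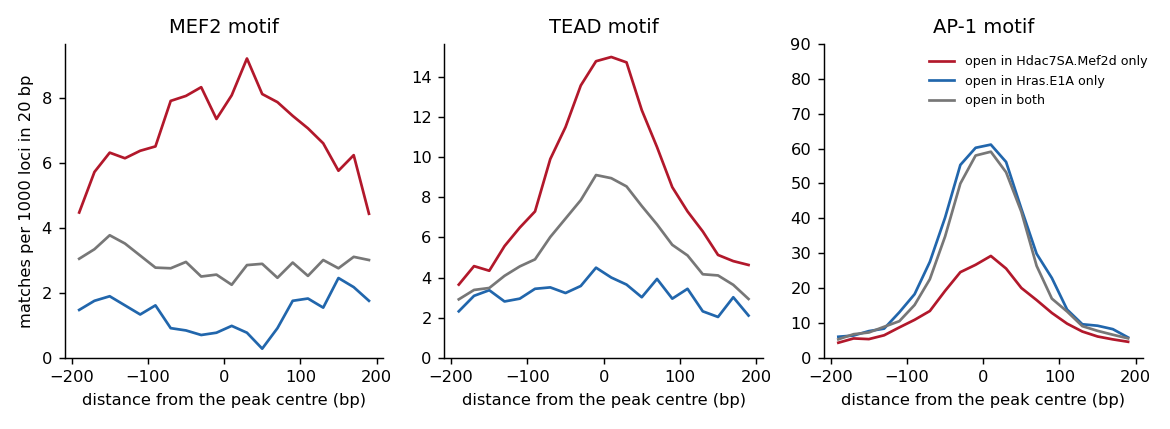
Matches of the MEF2, TEAD and AP-1 sites per 1000 distal loci in bins of 20 bp, by distance from the peak centre (bp). MEF2 matches are denser at the centre than at the flanks of Hdac7SA.Mef2d-only loci (1.33 times) and sparser at the centre of Hras.E1A-only (0.405 times) and shared loci (0.827 times).

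Each form of the MEF2 site frequent enough to be tallied was more frequent in Hdac7SA.Mef2d-only than in Hras.E1A-only loci. The most frequent, TTAAAAATAA, was in 9.22 of 1000 Hdac7SA.Mef2d-only loci, 0.988 of 1000 Hras.E1A-only loci and 2.49 of 1000 shared loci. CTATTTTTAA was in 7.04, 0.461 and 1.41 of 1000 loci of the 3 classes, and CTAAAAATAG in 4.02, 0.725 and 1.91. Among AP-1 sites, the flanking bases differed between the classes. GTGACTCAC was in 14.5 of 1000 Hdac7SA.Mef2d-only and 47.6 of 1000 Hras.E1A-only loci, while TTGACTCAA was in 2.86 and 1.58 of 1000. These counts by form were not split by G and C content, which differed between the classes (medians of 42.25% and 49.5%). The part of base composition in the flanking bases was not tested. At least 2 AP-1 matches in the central 200 bp were found in 0.937% of distal Hdac7SA.Mef2d-only loci, 3.76% of distal Hras.E1A-only loci and 4.37% of distal shared loci.

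Shared loci were grouped by the difference of their percentiles in the lists, which is a difference of rank and no measured change of accessibility. Of 65391 shared loci, 3278 had a percentile over 40 points higher in Hdac7SA.Mef2d than in Hras.E1A, 5186 had one over 40 points lower, and 41996 lay within 20 points. MEF2 sites were in 4.51% (3.83 to 5.28) of those higher in Hdac7SA.Mef2d, 1.48% (1.17 to 1.85) of those lower and 1.81% of those within 20 points, and TEAD sites in 10.8%, 4.92% and 4.996%. The loci higher in Hdac7SA.Mef2d thus stood apart for both sites, and the lower ones differed little from those within 20 points. AP-1 sites were in 29.99% (28.4 to 31.6) of those higher, 44.2% (42.9 to 45.6) of those lower and 22.8% of those within 20 points, so that both shifted groups held more AP-1 sites than the loci within 20 points. Promoters made up 3.26% of the loci higher in Hdac7SA.Mef2d, 5.13% of those lower and 28.8% of those within 20 points, and the part of this in the site shares was not tested. With the Hdac7SA.Mef2d list cut to equal length and ranked anew, a repeat added after seeing the data, MEF2 sites were in 5.23%, 1.63% and 2.23%, TEAD sites in 11.5%, 5.14% and 6.10% and AP-1 sites in 33.1%, 37.2% and 26.2% of the loci over 40 points higher, over 40 points lower and within 20 points. With the lists as deposited, the 5 shared loci that stood lowest in Hdac7SA.Mef2d relative to Hras.E1A all held an AP-1 site. They lay near Enox2, Zeb1, Serpine2, Rwdd1 and Prag1, where Zeb1 encodes a repressor of epithelial genes and Serpine2 a protease inhibitor. The Enox2 locus, printed here for its single AP-1 site, was at the 1.19 percentile in Hdac7SA.Mef2d and the 99.1 percentile in Hras.E1A.
Enox2, chrX:49100651-49100850, plus strand: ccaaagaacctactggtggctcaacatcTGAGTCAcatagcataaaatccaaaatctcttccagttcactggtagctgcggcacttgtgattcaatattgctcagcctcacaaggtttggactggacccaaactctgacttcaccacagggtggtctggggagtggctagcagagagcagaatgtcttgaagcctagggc
The 5 that stood highest in Hdac7SA.Mef2d lay near Asph (98.3 percentile in Hdac7SA.Mef2d and 0.487 in Hras.E1A), Bdh1 (99.5 and 3.77), Nedd4l (98.8 and 3.21), Hes1 (96.9 and 1.55) and Galnt5 (96.97 and 2.21). Hes1 is a Notch-induced repressor and Nedd4l a ubiquitin ligase. Of these 5 loci, 2 held an AP-1 site and 1 a MEF2 site.

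The other 5 lists were not used to form the classes. All 5 come from Hras-transformed cells, drug-treated Hras.E1A cells among them, and none from cells with Hdac7SA or Mef2d. The choice of lists therefore favours overlap with Hras.E1A-only loci, and its part in the shares below cannot be told apart. Of Hdac7SA.Mef2d-only loci, 66.7% (66.3 to 67.1) were open in none of the 5, and between 5.14% (untreated Hras.Myc) and 12.5% (Hras.Myc with TSA) were open in any single one of them. Of Hras.E1A-only loci, 8.36% (7.93 to 8.81) were open in none, while 74.9% were open in Hras.E1A with TSA, 63.7% in untreated Hras.Myc, 61.0% in Hras.Myc with TSA, 32.2% in Hras.E1A with PD and 22.9% in Hras.Myc with PD. Of shared loci, 3.84% were open in none of the 5 and 67.8% in Hras.E1A with PD. Over all 133802 loci of the comparison, 29.4% were open in none of the 5 and 55.3% in Hras.E1A with TSA. Untreated Hras.Myc had 47.1% of them, Hras.Myc with TSA 48.3%, Hras.E1A with PD 41.4% and Hras.Myc with PD 38.3%. Distal Hras.E1A-only loci with an AP-1 site had no peak in Hras.E1A with PD in 89.4% (88.5 to 90.2) of cases, and those without an AP-1 site in 58.0% (56.9 to 59.0). Shared distal loci differed by AP-1 site as well, with 64.7% of those with a site and 27.8% of those without lacking a peak in Hras.E1A with PD, so this was not particular to Hras.E1A-only loci. Hdac7SA.Mef2d and PD-treated Hras.E1A are both set against the same untreated Hras.E1A list, so these values describe the members and are no second line of evidence. A locus with no peak may still hold reads.

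By gene, loci were assigned to the nearest TSS of a protein-coding gene within 10000 bp, which 35829 loci of the comparison had. Of these, 7484 (20.9%) were Hdac7SA.Mef2d-only and 3981 (11.1%) Hras.E1A-only. At equal list length the shares near genes were 11.5% and 37.2%, so that the balance of the classes near genes turned round. Every count by gene below depends on the list length in this way. Of 16631 genes with a locus, 4785 had more Hdac7SA.Mef2d-only than Hras.E1A-only loci, 2317 had fewer and 9529 had as many.

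Foxp1 and Fhl1 had the highest surplus of Hdac7SA.Mef2d-only loci, with 8 each and no Hras.E1A-only locus. Fhl1 encodes a LIM-domain protein of muscle and is known as a MEF2 target (ENSMUSG00000023092.16, chrX:56731787-56793346, plus strand). Its 8 Hdac7SA.Mef2d-only loci stood at the 58.7, 17.7, 14.0, 73.5, 19.4, 88.1, 19.0 and 50.6 percentiles of the list, in order along the chromosome. The most prominent of them, at 88.1, lay over a start site within the gene, whereas the locus 102 bp before the first start site was shared, at the 53.6 percentile in Hdac7SA.Mef2d and the 57.9 percentile in Hras.E1A. Of the 8 loci, 5 were open in none of the other 5 lists, 3 in Hras.E1A with PD and none in untreated Hras.Myc. With the list cut to equal length, the surplus at Fhl1 was 4.

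Foxp1 encodes a forkhead transcription factor (ENSMUSG00000030067.17, chr6:98925338-99522721, minus strand). Its 8 Hdac7SA.Mef2d-only loci were all in introns, at percentiles of 1.55 to 77.3 with a median of 17.4, and beside them stood 6 shared loci. Over the whole gene and 10000 bp to each side, 29 loci were Hdac7SA.Mef2d-only, 3 were Hras.E1A-only and 26 were shared. At equal length the surplus near the start sites of Foxp1 was 0, since the cut removed low-scoring Hdac7SA.Mef2d-only peaks and also the Hdac7SA.Mef2d peak of some shared loci.

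Tgfbr1, the type I receptor of TGF-beta (ENSMUSG00000007613.15, chr4:47353222-47414931, plus strand), had 6 Hdac7SA.Mef2d-only loci, no Hras.E1A-only locus and 2 shared ones, 1 of them over its promoter at the 80.2 percentile in Hdac7SA.Mef2d and 83.9 in Hras.E1A. The 6 loci stood at the 0.303, 31.4, 22.4, 6.63, 40.5 and 80.8 percentiles, and 5 of the 6 were open in none of the other 5 lists. The strongest Fhl1 and Tgfbr1 loci with a MEF2 site are printed here, since both genes belong to lists described below. The first lies 8731 bp before a start site of Fhl1 and the second in an intron of Tgfbr1.
Fhl1, chrX:56722757-56722956, plus strand: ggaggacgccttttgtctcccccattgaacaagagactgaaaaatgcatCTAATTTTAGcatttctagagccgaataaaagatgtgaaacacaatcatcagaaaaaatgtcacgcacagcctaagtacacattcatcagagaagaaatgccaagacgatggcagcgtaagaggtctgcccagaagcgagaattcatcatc
Tgfbr1, chr4:47394049-47394248, plus strand: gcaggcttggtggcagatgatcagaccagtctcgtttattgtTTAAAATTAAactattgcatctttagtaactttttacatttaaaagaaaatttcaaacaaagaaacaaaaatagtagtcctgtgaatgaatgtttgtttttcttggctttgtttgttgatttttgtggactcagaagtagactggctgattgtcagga
The other genes of the 10 with the highest surplus had 6 Hdac7SA.Mef2d-only loci each and no Hras.E1A-only locus. They were Stard13, a GTPase-activating protein, Zbtb38, a zinc finger protein that binds methylated DNA, Col9a1, a chain of cartilage collagen, Tmc1, a mechanotransduction channel of hair cells, Tmcc1, Mfap5, a microfibril protein, and Mylk3, the myosin light chain kinase of the heart. Mylk3, Mfap5 and Tmc1 had no shared locus, and their loci reached the 94.4, 42.5 and 60.2 percentiles. At equal length the surplus was 4 at Mylk3 and Tmc1, 2 at Zbtb38, Col9a1, Mfap5 and Tgfbr1, and 0 at Stard13 and Tmcc1. Of the 64 Hdac7SA.Mef2d-only loci of these 10 genes, 6 held a MEF2 site, 11 an AP-1 site and 6 a TEAD site, and 39 were open in none of the other 5 lists. Over all Hdac7SA.Mef2d-only loci, 7.26% held a MEF2 site, 18.4% an AP-1 site and 10.9% a TEAD site, and 66.7% were open in none of those 5 lists.

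In the other direction, Sstr3, a somatostatin receptor (ENSMUSG00000044933.3, chr15:78537008-78544685, minus strand), had 5 Hras.E1A-only loci and no other locus within 10000 bp of its TSS. They stood at the 9.36, 14.1, 26.1, 21.3 and 32.5 percentiles of the Hras.E1A list, 4 of the 5 held an AP-1 site, all 5 were open in untreated Hras.Myc and none in Hras.E1A with PD. Lingo1, a leucine-rich repeat protein of neurons (ENSMUSG00000049556.5, chr9:56618475-56796468, minus strand), had 4, at the 14.4, 90.2, 30.6 and 10.8 percentiles, of which the intronic loci at 14.4 and 90.2 held an AP-1 site. Grik3, a kainate receptor subunit, had 4 and no other locus, at the 69.5, 26.7, 11.2 and 28.7 percentiles, and all 4 were open in untreated Hras.Myc, in Hras.E1A with TSA and in Hras.Myc with TSA and none with PD. The strongest AP-1 loci of Lingo1 and Sstr3 are printed as the counterparts of the MEF2 loci above.
Lingo1, chr9:56655231-56655430, plus strand: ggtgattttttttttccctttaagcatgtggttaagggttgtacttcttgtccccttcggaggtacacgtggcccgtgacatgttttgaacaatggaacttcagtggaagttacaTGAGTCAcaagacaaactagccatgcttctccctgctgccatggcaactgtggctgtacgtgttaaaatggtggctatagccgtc
Sstr3, chr15:78549269-78549468, plus strand: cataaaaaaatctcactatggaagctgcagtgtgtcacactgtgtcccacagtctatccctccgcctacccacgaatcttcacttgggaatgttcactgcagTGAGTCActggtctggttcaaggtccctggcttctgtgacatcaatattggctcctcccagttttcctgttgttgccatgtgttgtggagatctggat
Gpnmb, a membrane glycoprotein of melanocytes and macrophages, Mroh5 and Kcnj12, an inward rectifier potassium channel, had 4 Hras.E1A-only loci each and no Hdac7SA.Mef2d-only one. Phc2, a Polycomb subunit, had 1 Hdac7SA.Mef2d-only and 5 Hras.E1A-only loci beside 7 shared ones, and Add2, an adducin of the membrane skeleton, C1ql2 and Sgsm1 had 3 Hras.E1A-only loci each. Of the 39 Hras.E1A-only loci of these 10 genes, 17 held an AP-1 site and none a MEF2 site, and 1 was open in none of the other 5 lists. Over all Hras.E1A-only loci, 35.4% held an AP-1 site and 0.850% a MEF2 site, and 8.36% were open in none of those 5 lists. At equal length, which by its construction adds Hras.E1A-only loci, the surplus of these 10 genes was 4 to 6 loci per gene.

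The genes with the most shared loci were Plekha7, a protein of adherens junctions, and Sept9, a septin, with 11 each, and Ablim1, an actin-binding LIM protein, Dab2ip, a GTPase-activating protein for Ras, and Gramd1b, with 10 each. All 5 also held loci of both single-list classes. At Gramd1b 3 loci were Hdac7SA.Mef2d-only and 4 Hras.E1A-only. At equal length the 5 genes held 3 to 6 shared loci each, and all 5 had more Hras.E1A-only than Hdac7SA.Mef2d-only loci.

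Gene lists were read against the shares near all genes (20.9% Hdac7SA.Mef2d-only and 11.1% Hras.E1A-only), with no test. Genes known as MEF2 targets, 24 of 28 of which had a locus, had 32 Hdac7SA.Mef2d-only loci of 86 (37.2%, 27.0 to 48.3) and 9 Hras.E1A-only loci (10.5%). Among these genes 11 had a surplus of Hdac7SA.Mef2d-only loci, 2 a surplus of Hras.E1A-only loci and 11 neither, with a median surplus of 0, which was also the median over all genes. Bdnf, a neurotrophin, had 4 Hdac7SA.Mef2d-only and no Hras.E1A-only loci, Myom1, a sarcomere protein, 3 and 0, Mb (myoglobin) 3 and 1, and Hdac9, a class IIa histone deacetylase and MEF2 target, 2 and 0. The promoters of Myom1, Xirp1, Hdac9, Mb and Srpk3 were open in Hdac7SA.Mef2d only, and no promoter of the list in Hras.E1A only. Nr4a1 and Ppargc1a had a surplus of Hras.E1A-only loci, with 0 Hdac7SA.Mef2d-only against 1 Hras.E1A-only locus and 1 against 2. Fhl1 carried 8 of the 32 loci, and without it the share was 31.2% (21.1 to 42.7). At equal length it was 19.4% (10.8 to 30.9) with Fhl1 and 14.5% (6.86 to 25.8) without, beside 11.5% near all genes, and 41.8% of the list's loci were then Hras.E1A-only, beside 37.2% near all genes.

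Fibroblast markers had 19 Hdac7SA.Mef2d-only loci of 54 (35.2%, 22.7 to 49.4) and 5 Hras.E1A-only ones (9.26%). Of the 16 genes, 11 had a surplus of Hdac7SA.Mef2d-only loci, none of Hras.E1A-only loci and 5 neither. Dcn (decorin) had 3 and 1, Col3a1 and Pdgfrb 2 and 0 each, and Col1a1 2 and 1. The promoters of Dcn, Col1a2 and Thy1 were open in Hdac7SA.Mef2d only, at the 28.6, 24.2 and 13.2 percentiles. The median surplus over the 16 genes was 1, against 0 over all genes. At equal length, however, the share of the list was 10.3% (2.87 to 24.2), beside 11.5% near all genes, so its place above all genes rested on peaks under the cut. The Hras.E1A-only share of the list was then 51.3% (34.8 to 67.6), beside 37.2% near all genes. A like drop was found for the TGF-beta pathway, with 29 Hdac7SA.Mef2d-only loci of 100 (29.0%) as deposited and 14.5% (7.70 to 23.9) at equal length. It was found too for chondrocyte and bone genes (30.1% and 12.1%), collagens (27.9% and 12.7%) and smooth muscle and SRF target genes (27.5% and 12.3%). At equal length the Hras.E1A-only share was 51.7% for chondrocyte and bone genes and 50.7% for collagens. It was 33.7% for the TGF-beta pathway and 35.1% for smooth muscle and SRF target genes. In the TGF-beta list, besides Tgfbr1, the receptors Acvr1 and Bmpr1b and the inhibitor Smad7 had 3 Hdac7SA.Mef2d-only loci each, with 1, 0 and 1 Hras.E1A-only locus. Among collagens, Col15a1 had 5 and 1, and in the smooth muscle list Mylk and Myh11 had 4 and 0 and 4 and 1.

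**Figure D5:**
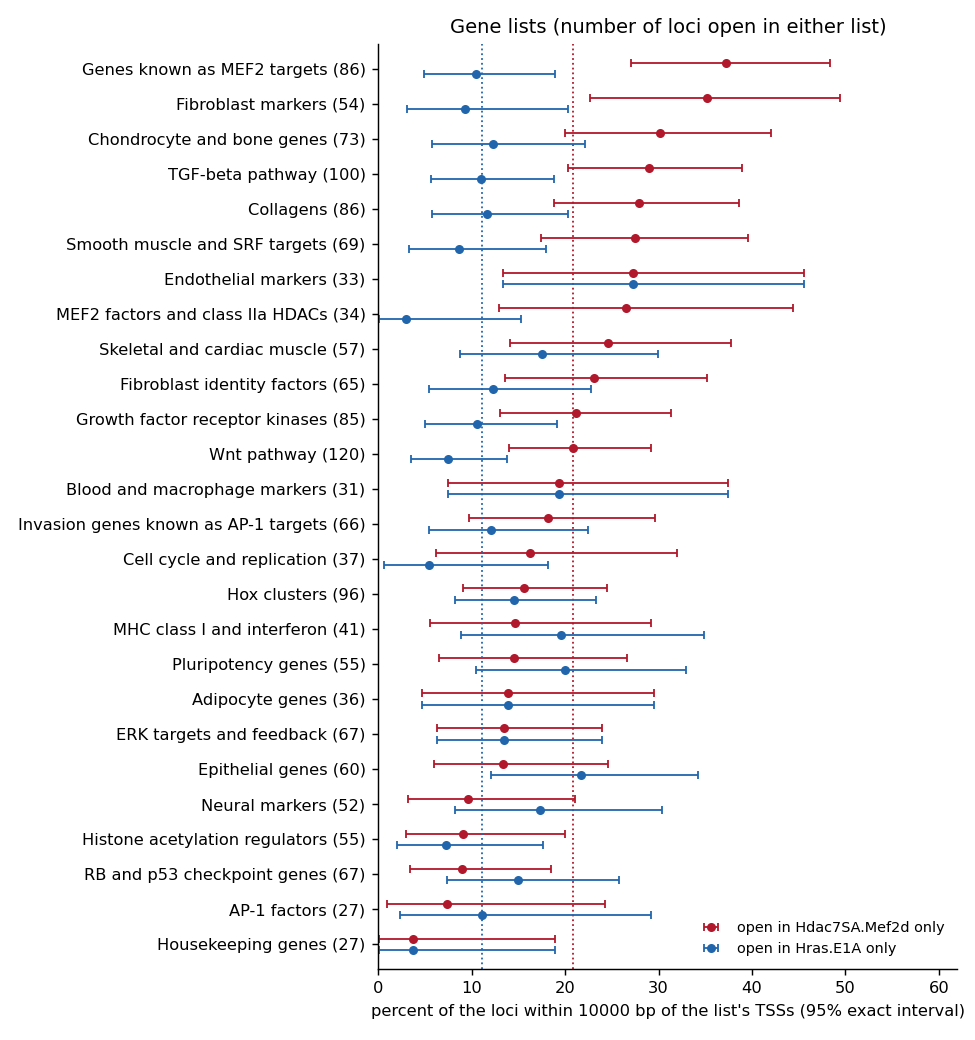
For 26 gene lists, percent of the loci within 10000 bp of the list's start sites that were Hdac7SA.Mef2d-only (red, upper point) and Hras.E1A-only (blue, lower point), with 95% exact intervals, the number of loci in brackets and dotted lines at the shares near all genes (20.9% and 11.1%). MEF2 targets and fibroblast markers lie highest for Hdac7SA.Mef2d-only loci, at 37.2% and 35.2%.

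Some lists of other lineages and of growth control lay under the share of Hdac7SA.Mef2d-only loci near all genes. Epithelial genes had 8 Hdac7SA.Mef2d-only (13.3%) and 13 Hras.E1A-only loci (21.7%, 12.1 to 34.2) of 60. Cldn4 and Pkp3, of tight junctions and desmosomes, had promoters open in Hras.E1A only, at the 80.4 and 73.8 percentiles of its list, and so did Cldn3 at 29.3. Among epithelial genes 5 had a surplus of Hdac7SA.Mef2d-only loci and 11 one of Hras.E1A-only loci. Near its start sites Cdh1, the epithelial cadherin, had a shared promoter at the 58.2 percentile in Hdac7SA.Mef2d and 35.5 in Hras.E1A. It also had an intronic Hras.E1A-only locus there, at 61.8. Over the whole gene and 10000 bp to each side, Cdh1 had 2 Hdac7SA.Mef2d-only, 1 Hras.E1A-only and 6 shared loci. Epcam had a single locus, a shared promoter at 57.9 in Hdac7SA.Mef2d and 53.2 in Hras.E1A. Pluripotency genes had 8 Hdac7SA.Mef2d-only (14.5%) and 11 Hras.E1A-only loci of 55, and the promoter of Pou5f1 was open in neither line. Checkpoint genes of the RB and p53 pathways had 6 (8.96%) and 10 (14.9%) of 67, with Cdkn1a, the inhibitor p21, at 0 and 2 and Cdkn2a, which encodes p16 and p19, at 2 and 0. Genes of AP-1 factors had 2 (7.41%) and 3 (11.1%) of 27, and all 10 of their promoters were open in both lines, as were those of all 15 housekeeping genes, which had 1 locus of each single-list class among 27. At equal length the Hdac7SA.Mef2d-only and Hras.E1A-only shares near all genes were 11.5% and 37.2%. They were 3.70% and 61.1% for epithelial genes and 4.08% and 59.2% for pluripotency genes. Checkpoint genes then had 0% and 45.9%, AP-1 factor genes 0% and 68.0% (46.5 to 85.1) and housekeeping genes 0% and 42.3%. The remaining lists lay between 9.09% (histone acetylation regulators, 5 of 55 loci) and 27.3% (endothelial markers, 9 of 33) Hdac7SA.Mef2d-only loci, with Wnt pathway genes at 20.8%, skeletal and cardiac muscle genes at 24.6% and receptor kinases of growth factors at 21.2%. Endothelial markers had as many Hras.E1A-only loci, 9 of 33 (27.3%, 13.3 to 45.5), beside 11.1% near all genes. For this list the 2 shares were 14.3% and 64.3% at equal length.

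Marker promoters were read as a check of the cell type. Of 10 fibroblast markers, 10 were open in Hdac7SA.Mef2d and 7 in Hras.E1A, where Col1a2, Thy1 and Prrx1 had no promoter peak. No marker count here was repeated at equal list length. In Hdac7SA.Mef2d, the promoters of Col1a1, Col1a2, Pdgfra, Pdgfrb, Prrx1, Thy1, Twist1 and Vim stood at the 0.936 to 26.5 percentiles. These lie under the cut to equal length, and only Col3a1 (39.6) and Twist2 (67.1) lie above it. The higher count in Hdac7SA.Mef2d thus rested on peaks under the cut. Over the longer lists, the promoters of 14 (Hdac7SA.Mef2d) and 11 (Hras.E1A) of 16 fibroblast markers and of 19 and 19 of 21 fibroblast identity factors were open. Lum, Postn and Tcf21 had no promoter peak in either line, and the promoter of Meox1, a mesoderm homeobox factor, was open in Hras.E1A only, at the 75.03 percentile. Some markers of other cell types were open as well. The promoters of 3 of 4 endothelial genes, 2 of 4 blood genes and 4 of 4 epithelial genes were open in both lines, and 1 (Hdac7SA.Mef2d) and 3 (Hras.E1A) of 4 neural genes. In the longer lists, the promoters of 13 (Hdac7SA.Mef2d) and 16 (Hras.E1A) of 18 neural genes were open. The same counts were 8 and 7 of 14 endothelial, 7 and 7 of 16 blood and 18 and 21 of 25 epithelial genes. Of 4 genes that define skeletal muscle (Myod1, Myog, Ckm and Myf5), the promoters of 0 and 1 were open, but of all 31 skeletal and cardiac muscle genes 16 and 17 were. Acta1, Myl1 and Casq2 were open in Hdac7SA.Mef2d only, and Myod1, Tnnt2, Ttn and Pax7 in Hras.E1A only. The endothelial promoters reached the 70.3 percentile in Hdac7SA.Mef2d and 91.0 in Hras.E1A, and the part of other cell types in the results was not tested.

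The endogenous copies of the transgenes were examined as a check of the labels. Over the coding sequence of Mef2d (ENSMUSG00000001419.17, chr3:88142372-88172086), a locus centred on a coding exon at chr3:88159015-88159414 was open in Hdac7SA.Mef2d only, at the 96.9 percentile. A shared locus centred on a coding exon at chr3:88157858-88158257 went the other way, at 16.5 in Hdac7SA.Mef2d and 79.6 in Hras.E1A. In total Mef2d and its flanks held 5 Hdac7SA.Mef2d-only, no Hras.E1A-only and 4 shared loci. Over the coding sequence of Hdac7 lay a shared locus centred in an intron, at the 6.59 and 10.6 percentiles. These loci thus gave no clear check. Reads from an integrated Mef2d transgene and from the gene itself cannot be told apart in these lists. Hdac7 had 2 Hdac7SA.Mef2d-only and 12 shared loci, and Hras only its shared promoter, at the 68.0 percentile in Hdac7SA.Mef2d and 68.3 in Hras.E1A. Among the MEF2 and class IIa histone deacetylase genes, Hdac9 had, over its whole length, 36 Hdac7SA.Mef2d-only, 5 Hras.E1A-only and 13 shared loci. Hdac4 had 11, 4 and 13, Mef2c 3, 1 and 9, and Mef2a 1, 0 and 6. Over the whole comparison 39.8% of loci were Hdac7SA.Mef2d-only, and Hdac4, Mef2c and Mef2a lay at or under that share.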

How the data were processed

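ATAC-seq libraries of 12 samples were deposited by the authors as 7 peak lists, 1 for each cell line and treatment, with replicates pooled. Each list gives a chromosome, a start, an end and a score, and the deposited score has no stated scale, so that it was used only as a percentile within its list (the percent of the list's peaks with a lower score, ties at their mid-rank). Bowtie2 2.4.5, MACS2 2.2.7.1 and mm10 are named in the submitters' processing notes, and the methods add that redefine_peaks shared peak information across samples. Read counts were not used here, and the depth of each list is unknown.

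Peaks of all 7 lists that overlapped by at least 1 bp were merged into loci. Loci were classed by the lists with a peak, placed relative to the TSSs of 21938 protein-coding genes of the GENCODE M21 basic annotation (promoter, within 1000 bp) and given to the gene of the nearest TSS within 10000 bp. Sequence came from the RefSeq GRCm38.p6 genome (mm10), and the central 200 bp of every locus were scanned for 25 sites in either orientation. Repeat and G and C content came from the 400 bp of the peak. With 1 list per line no test was run, and shares carry exact Clopper-Pearson 95% intervals. The genes named were the 10 with the largest surplus in each direction and the 5 with the most shared loci, together with the highest-scoring loci, the largest shifts of shared loci and members of the gene lists singled out after their values were seen. One of the highest-scoring loci is not reported here. The comparison, its members, the 26 gene lists and the sites were chosen with earlier results of these data known. Other alternatives, the 8-letter words and the 100000 bp windows were added after seeing the data. The scripts, in Python 3.11.15 with numpy 2.4.6, pandas 2.3.3, scipy 1.17.1 and matplotlib 3.10.9, were tested on simulated data. There were 0 columns of samples outside the labels.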

Additional observations from a re-analysis of the deposited data

How the results depend on the processing

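No paired analysis was possible because the replicates of each line were pooled in 1 list, and for the same reason no replicate could be left out. Directions held for the site shares, with MEF2 sites more frequent and AP-1 sites less frequent in Hdac7SA.Mef2d-only than in Hras.E1A-only loci under each alternative run on them, but not near genes. The surplus of Hdac7SA.Mef2d-only over Hras.E1A-only loci within 10000 bp of a TSS was 3503 as deposited and -8249 at equal length, with 1599 within 5000 bp and 14023 within 50000 bp. The surplus of genes with a promoter open in Hdac7SA.Mef2d only was 65 as deposited and -2945 at equal length. At equal length the surplus was -7 at Plekha7 and Sept9, -5 at Ablim1 and -4 at Dab2ip, and Dab2ip had -1 within 50000 bp and Gramd1b 1 without promoters. These surpluses were added after seeing the data. Cut to equal length, the lists gave 35221 loci open in Hdac7SA.Mef2d only and 34772 in Hras.E1A only, and with all 7 lists cut to the shortest they gave 27210, 27077 and 29491 shared. The percent in promoters, for Hdac7SA.Mef2d-only, Hras.E1A-only and shared loci, was 1.37, 4.63 and 20.2 with promoters of 500 bp, 4.22, 9.67 and 24.5 with 2500 bp, and 1.14, 13.8 and 22.6 at equal length. The percent with an AP-1 site in the same order was 11.7, 23.8 and 18.5 in the central 100 bp and 20.5, 28.5 and 27.8 at equal length. Without promoters it was 36.9 (Hras.E1A-only) and 32.6 (shared), and among loci of 40 to 50% G and C, added after seeing the data, 42.2 and 36.6. The percent with a MEF2 site was 3.62, 0.329 and 0.971 in the central 100 bp, 8.07, 1.31 and 2.22 at equal length, and 6.23, 1.07 and 2.61 among loci of 40 to 50% G and C. It was 2.48 in shared loci without promoters. Merging the pair alone, a reciprocal overlap of 50%, a tolerance of 500 bp, leaving out the lowest 25% of scores, autosomes only and leaving out repeats (added after seeing the data) kept the 3 class counts within 1.5 times. The shares in 46 of 52 gene list values and the count of loci at 14 of the 25 genes named by rule moved at equal length, to a surplus of 0 at Foxp1, Stard13 and Tmcc1. The cause of these moves was not tested. Unknown depth limits every count of loci open in a single list, because a locus under the calling threshold in a list is counted as closed there.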

Other observations

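Some Hdac7SA.Mef2d-only loci stood together in stretches with no shared locus. Windows of 100000 bp were chosen after seeing the data, and 21884 of them held a locus of the comparison. Of these, 406 held at least 5 Hdac7SA.Mef2d-only loci and no other locus, and 9 held at least 5 Hras.E1A-only loci and no other. The classes differ in size (53233 and 15178 loci), which by itself makes such windows more frequent for the larger class. No window value was repeated at equal list length. Of all Hdac7SA.Mef2d-only loci, 19.99% lay in a window without a shared locus, against 5.53% of Hras.E1A-only loci. The densest window, chr5:43500001-43600000 at C1qtnf7, a secreted C1q and TNF family protein, held 17 Hdac7SA.Mef2d-only, 1 Hras.E1A-only and no shared loci, of which 10 of the 17 were open in none of the other 5 lists. At Slit3, a ligand of Robo receptors, chr11:35200001-35300000 held 14 Hdac7SA.Mef2d-only loci and nothing else, and at Fndc1, chr17:7700001-7800000 held 12 and nothing else. Ghr, the growth hormone receptor, had 12 with 2 shared loci. In the other direction, chr4:138700001-138800000 over a group of secreted phospholipase A2 genes (Pla2g2c, Pla2g2d, Pla2g2f and Pla2g5) held 9 Hras.E1A-only loci and 1 shared one, and the windows at Padi1 and Padi3, which encode peptidyl arginine deiminases, and at Ksr2, a scaffold of the RAF, MEK and ERK kinases, held 8 each and no other locus.

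Both kinds of change met at some genes. Of 16631 genes with a locus, 1187 had at least 1 Hdac7SA.Mef2d-only and 1 Hras.E1A-only locus within 10000 bp of a TSS, and 80 had at least 2 of each.

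Without any list of factors, all 8-letter words were counted, with their reverse complements, in the central 200 bp of distal loci of 40 to 50% G and C, a survey added after seeing the data. Of 19688 words found in at least 200 loci, the one with the largest difference in favour of Hdac7SA.Mef2d-only loci was TAAAAATA, in 5.56% of them, 1.38% of Hras.E1A-only and 2.51% of shared loci. It is the core of the MEF2 site. The next 2, ACATTCCT (5.05% and 1.42%) and ACATTCCA (4.62% and 1.24%), contain the TEAD site. The 3 with the largest difference the other way were GTGACTCA (5.30% of Hdac7SA.Mef2d-only and 16.5% of Hras.E1A-only loci), ATGAGTCA (5.41% and 15.7%) and ATGACTCA (6.01% and 16.1%), which all contain the AP-1 site. The survey shows the same loci as the search by name and is no independent support for it.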
